A study of Homo sapiens with 16 samples.

Results

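Gene expression in U-87MG cells given indole-3-pyruvate (I3P) was set against that in cells given the carrier DMSO. All arrays whose condition in the labels is I3P (4) or DMSO (4) were taken, 8 of the 16 arrays in the series, and paired by replicate number, 1 to 4. U-87MG is an established human glioblastoma cell line, described by the submitters as AHR-proficient, where AHR is the aryl hydrocarbon receptor. The I3P cells received 25 µM I3P and the DMSO cells received 0.1% DMSO, the carrier control. A further 4 arrays came from cells given 25 µM I3P together with 1 µM SR1, an AHR antagonist, and the last 4 from cells given 1 µM SR1 alone. The labels describe the arrays as biological replicates, and they do not give the time of exposure. Values are log2 expression, 1 per gene and array, so a difference of 1 is a 2-fold change.

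AHR rests in the cytoplasm with chaperones, moves to the nucleus when a ligand binds, pairs with ARNT and binds DNA at short elements with the core GCGTG. Its best known targets are the cytochrome P450 genes CYP1A1, CYP1A2 and CYP1B1, and the feedback genes AHRR, a repressor of the receptor, and TIPARP, an ADP-ribosyltransferase that lowers receptor activity. I3P is the keto acid formed when tryptophan loses its amino group, and it can turn into further indoles that bind AHR.

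One I3P array, that of replicate 1, was unlike the others of the series. Its correlation over genes with the other 15 arrays ran from 0.877 to 0.910, against 0.921 to 0.979 among those 15. Within replicate 1, I3P and DMSO differed by more than 1 log2 unit in 1095 genes (7.8% of those tested), while in replicates 2, 3 and 4 the counts were 83, 103 and 206. For this reason the main values below are given with and without that array. Array medians lay between 8.26 and 8.30. Titles divide the arrays into a series named SLI, which holds replicates 1 and 2, and a series named SMI, which holds replicates 3 and 4, and each series holds every group. Of the glioma markers, VIM, TNC, CHI3L1 and SPARC ranked at percentiles 99.8, 99.8, 96.5 and 96.2 of the gene values, whereas GFAP ranked at 37.2 and NES at 22.8. A percentile compares probe sets as well as RNA, so it is a coarse check of the cell type. Whether the labels of the SR1 and I3P+SR1 arrays could have been exchanged was not tested, which bears on every value with SR1 below. Counts with these labels as given and as exchanged are set out below.

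No gene passed the test for I3P against DMSO. In a limma fit to all 16 arrays with the replicate number as a block, 0 of 14040 genes (0.0%) had a Benjamini-Hochberg adjusted p under 0.05, and the smallest adjusted p was 0.46. Leaving out I3P replicate 1 gave a count of 0 again (0.0%), with a smallest adjusted p of 0.18. At an unadjusted p under 0.05, limma gave 882 genes (6.28%) with all arrays, 441 with a positive difference (I3P minus DMSO) and 441 with a negative one. In the fit without I3P replicate 1 it gave 776 genes (5.53%), 441 positive and 335 negative. With no replicate block the limma count was 0 (0.0%), and 395 genes (2.81%) lay under 0.05 before adjustment. The change had a median of -0.017 over all genes with all arrays and of 0.0054 without I3P replicate 1, and the 95% interval of a gene's change reached 0.28 on each side at the median. That interval is for a single gene before adjustment over all genes, so it is not the limit of the adjusted test. Changes larger than 0.28 did not pass either, such as that of SLC16A6 at 1.11 (SE 0.22, limma adjusted p = 0.57).

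All 4 I3P arrays lay above all 4 DMSO arrays in 139 genes (0.99%) and below them in 81 (0.577%). The I3P array was above its own DMSO array in all 4 pairs in 856 genes (6.1%) and below it in all 4 in 966 (6.88%). The volcano plots with and without I3P replicate 1 show both sets of values.

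**Figure D1:**
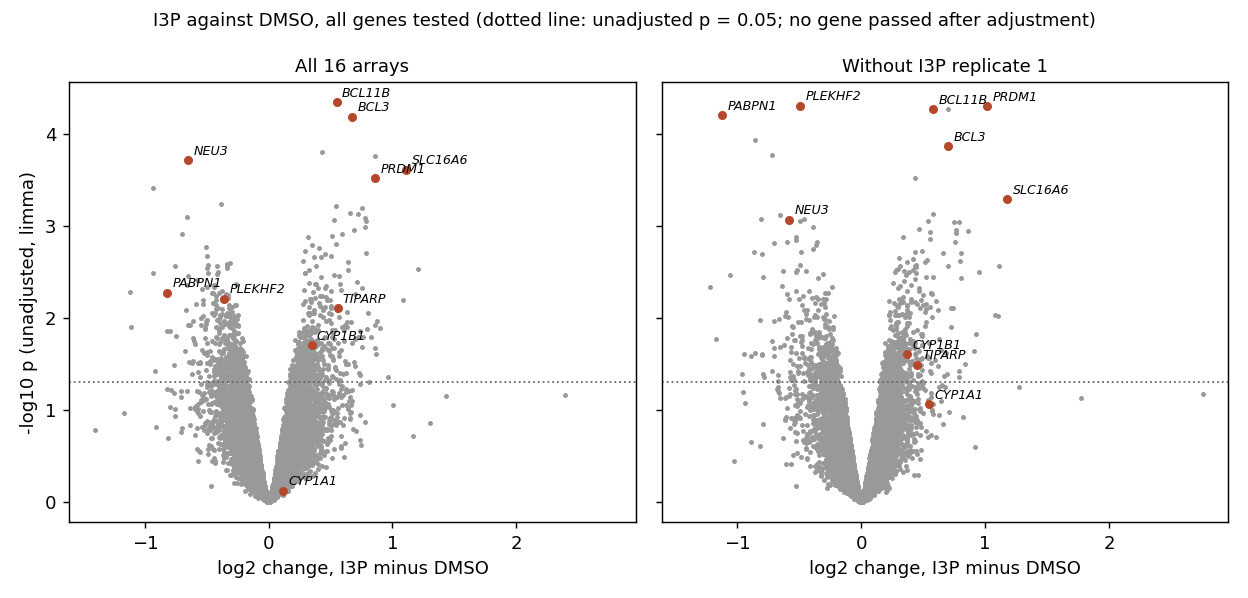
Log2 change (I3P minus DMSO) on the horizontal axis against -log10 of the unadjusted limma p on the vertical axis for 14040 genes, with all 16 arrays on the left and without I3P replicate 1 on the right. No gene passes after adjustment in either panel, and CYP1A1 moves to the right, to 0.54, when I3P replicate 1 is left out.

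Among the classical AHR targets, TIPARP and CYP1B1 had I3P arrays that all lay above the DMSO arrays (0.99% of all genes), and neither passed the test. Of the 12 genes in the AHR target battery 11 were measured with a row of their own. None of the 11 passed with or without I3P replicate 1. The change was positive in 8 of 11 (45.6% of all genes), with a median of 0.12. Leaving that array out made it positive in 9 (51.8% of all genes), with a median of 0.21. By replicate number the median of the battery was -0.20, 0.17, 0.20 and 0.27 for replicates 1 to 4, where the median over all genes was -0.091, 0.005, -0.002 and 0.029. Within the SMI arrays the median change was 0.23 and within the SLI arrays 0.026.

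CYP1B1, a cytochrome P450 that AHR induces in many tissues, was at 11.01, 11.11, 11.34 and 11.33 in the I3P arrays of replicates 1 to 4, against 10.71, 10.84, 10.92 and 10.93 in the DMSO arrays. The groups did not overlap, and I3P replicate 1 was the lowest of the I3P arrays, as DMSO replicate 1 was of the DMSO arrays. The difference was 0.35 (SE 0.13, 95% interval 0.065 to 0.63), a 1.27-fold ratio, with a limma adjusted p of 0.77. Leaving out I3P replicate 1 gave 0.37 (SE 0.14, adjusted p = 0.88).

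TIPARP was at 11.21, 10.99, 11.15 and 11.34 with I3P, against 10.59, 10.67, 10.37 and 10.84 with DMSO. Its groups did not overlap either, and the pair differences ran from 0.32 in replicate 2 to 0.78 in replicate 3. The change was 0.56 (SE 0.18, limma adjusted p = 0.77), a 1.47-fold ratio, and 0.45 (SE 0.19, adjusted p = 0.88) without I3P replicate 1. TIPARP and CYP1B1 were also the members with an unadjusted limma p under 0.05, at 0.0078 and 0.020, where 3.14% of all genes reached that level with a positive change.

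AHRR was at 8.32, 8.92, 8.54 and 8.96 in I3P arrays and at 8.57, 8.62, 8.36 and 8.6 in DMSO arrays. The groups overlapped, and replicate 1 was the pair in which I3P was the lower array, so the change was 0.15 (SE 0.15) with all arrays and 0.29 (SE 0.14, limma adjusted p = 0.88) without I3P replicate 1. CYP1A1, the target most often used to read AHR activity, was at 5.22, 6.98, 6.86 and 7.91 with I3P, against 6.48, 6.17, 6.16 and 7.68 with DMSO. Its probe set was among the dimmest, at percentile 0.150 of all genes by the mean over all 16 arrays, and its groups overlapped. That mean holds the SR1 arrays, which were at 4.44, 5.01, 3.97 and 5.38. I3P replicate 1 was the lowest of the 8 I3P and DMSO arrays. The change was 0.12 (SE 0.36) with I3P replicate 1 and 0.54 (SE 0.29, limma adjusted p = 0.89) without it. CYP1A2, which lies beside CYP1A1 on chromosome 15, was at 9.20, 8.59, 8.43 and 8.22 with I3P, against 8.79, 8.73, 8.54 and 9.07 with DMSO. Here the I3P array was lower in 3 of 4 pairs and replicate 1 was the exception, so the change was -0.17 (SE 0.20), and -0.41 (SE 0.17, limma adjusted p = 0.88) without I3P replicate 1.

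NQO1, a quinone reductase under the control of both AHR and NRF2, was at 10.28, 10.79, 11.01 and 10.45 in I3P arrays and at 10.58, 10.62, 10.91 and 10.03 in DMSO arrays. I3P was the higher array in replicates 2, 3 and 4, with a change of 0.10 (SE 0.11) over all arrays and 0.21 (SE 0.094) without I3P replicate 1. SERPINB2, an inhibitor of plasminogen activators, was at 12.64, 11.57, 11.37 and 12.54 with I3P and at 11.74, 11.05, 10.89 and 12.66 with DMSO. The arrays of SERPINB2 spread widely by replicate number in both groups, and the change was 0.44 (SE 0.21), or 0.26 (SE 0.20) without I3P replicate 1. NFE2L2, which encodes NRF2, had a change of 0.23 (SE 0.13) that was 0.054 (SE 0.088) without I3P replicate 1, whose value of 10.99 was the highest of the 8. The changes of the efflux pump gene ABCG2, the aldehyde dehydrogenase gene ALDH3A1 and the amino acid transporter gene SLC7A5 were 0.052, -0.18 and -0.012, with overlapping groups. The receptor gene AHR itself had a change of 0.044 (SE 0.086) and its partner ARNT one of -0.058 (SE 0.098). Both turned sign without I3P replicate 1, to -0.028 and 0.046. In I3P+SR1 against SR1, the changes were 2.56 in CYP1B1, 1.41 in TIPARP, 1.37 in AHRR and 1.37 in SERPINB2, and these passed there. The battery members that did not pass there had changes of 1.47 in CYP1A1, 0.54 in CYP1A2, 0.36 in NQO1 and 0.35 in NFE2L2. Those of ABCG2, ALDH3A1 and SLC7A5 were 0.23, -0.34 and 0.054.

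**Figure D2:**
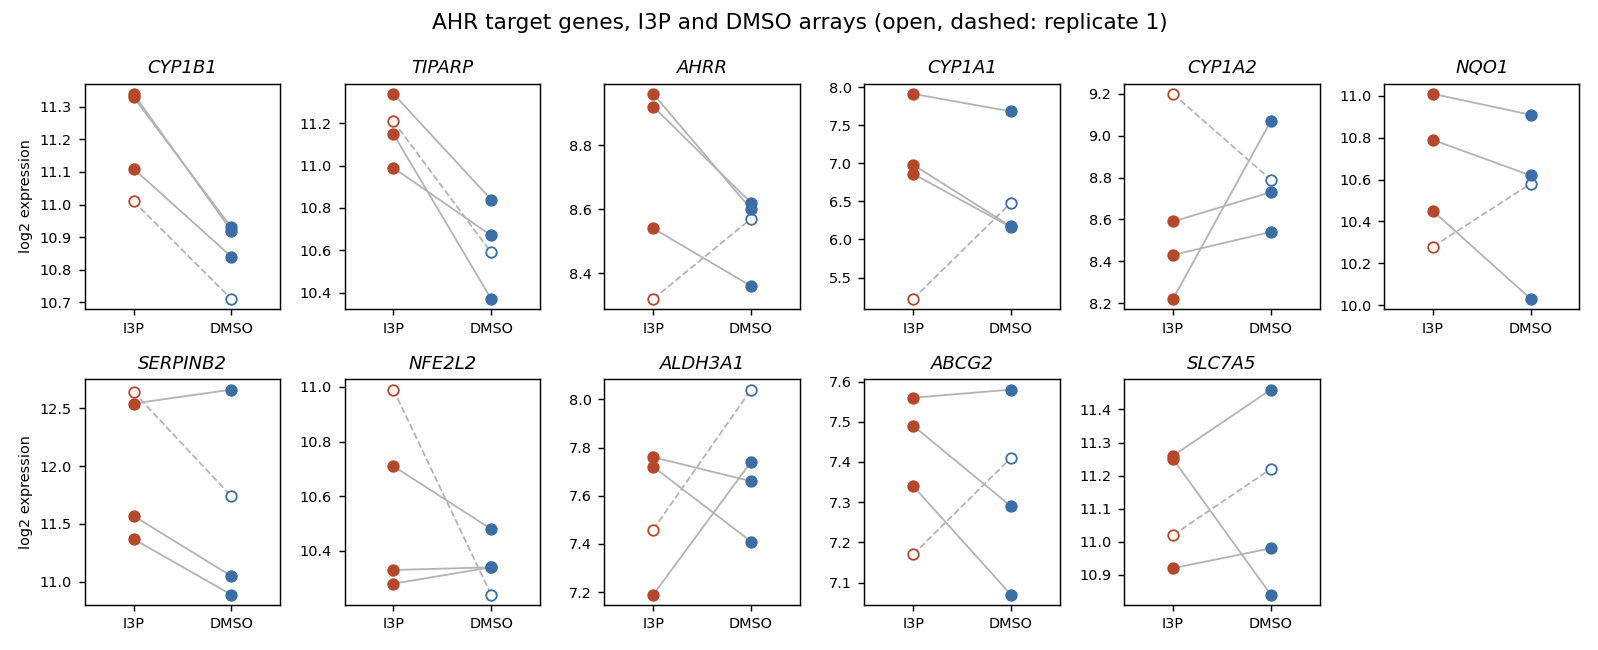
Log2 expression (vertical axis, own scale in each panel) of the 11 measured AHR target genes in I3P arrays on the left and DMSO arrays on the right of each panel, with lines joining arrays of the same replicate number and open symbols for replicate 1. CYP1B1 and TIPARP have all I3P points above all DMSO points, and replicate 1 runs against the other 3 pairs in AHRR, CYP1A1, CYP1A2 and NQO1.

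The promoters of 3 battery members and of PRDM1, a gene described below, are shown because AHR binds the core GCGTG and these genes differ in how far I3P and DMSO arrays separated. Sequences are from RefSeq on GRCh38.p14, 5′ to 3′ on the gene's strand, from 250 bases before to 50 bases after the start. Capitals mark GCGTG, or CACGC where the core lies on the opposite strand. TIPARP lies at chr3:156674340-156674639 on the plus strand with 2 cores, AHRR at chr5:321464-321763 on the plus strand with 1, CYP1A1 at chr15:74725479-74725778 on the minus strand with 1, and PRDM1 at chr6:106086086-106086385 on the plus strand with 1.
TIPARP: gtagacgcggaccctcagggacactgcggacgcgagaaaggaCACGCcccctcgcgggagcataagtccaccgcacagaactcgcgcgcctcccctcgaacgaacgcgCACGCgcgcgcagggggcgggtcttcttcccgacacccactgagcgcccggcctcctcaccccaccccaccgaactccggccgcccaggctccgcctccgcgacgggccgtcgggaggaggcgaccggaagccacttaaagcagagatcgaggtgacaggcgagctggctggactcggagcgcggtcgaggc
AHRR: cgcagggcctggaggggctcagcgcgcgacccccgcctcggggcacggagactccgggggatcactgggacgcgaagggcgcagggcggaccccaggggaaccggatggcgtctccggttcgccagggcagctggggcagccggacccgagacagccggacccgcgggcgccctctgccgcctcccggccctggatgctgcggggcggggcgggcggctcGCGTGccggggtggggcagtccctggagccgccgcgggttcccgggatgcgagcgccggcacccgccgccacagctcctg
CYP1A1: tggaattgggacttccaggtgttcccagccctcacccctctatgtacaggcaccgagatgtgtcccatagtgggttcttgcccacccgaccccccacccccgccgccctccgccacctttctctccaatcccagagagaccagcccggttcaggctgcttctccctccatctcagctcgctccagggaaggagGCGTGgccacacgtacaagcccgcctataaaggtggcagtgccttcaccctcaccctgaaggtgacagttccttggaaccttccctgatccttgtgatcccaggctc
PRDM1: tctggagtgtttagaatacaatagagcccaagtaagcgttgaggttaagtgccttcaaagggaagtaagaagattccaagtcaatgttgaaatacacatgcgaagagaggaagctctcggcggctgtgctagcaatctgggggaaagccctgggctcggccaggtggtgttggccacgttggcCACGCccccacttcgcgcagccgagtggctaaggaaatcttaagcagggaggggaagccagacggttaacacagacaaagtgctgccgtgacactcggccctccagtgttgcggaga
BCL3, another gene described below, was read in the same window and had 0 cores on either strand, so its sequence is not printed. The core of AHRR is also the longer motif TNGCGTG, which contains GCGTG. On either strand, GCGTG was found in 6 of the 9 battery promoters in the table (66.7%) and in 5462 of 11185 promoters of all genes tested (48.8%). TNGCGTG was found in 3 of the 9 (33.3%) and in 777 of the 11185 (6.95%). Among the 45 genes called below for I3P+SR1 against SR1, 35 had a promoter in the table, of which 18 (51.4%) held GCGTG and 3 (8.57%) held TNGCGTG. A match is a run of letters in this window and was not tested as a binding site.

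The 10 genes with the smallest p in the fit to all arrays were BCL11B, BCL3, DHRS3, ZNF295-AS1, NEU3, SLC16A6, PRDM1, KCNK12, PLCE1 and DLG2, and none passed. Their limma adjusted p ran from 0.46 to 0.74. BCL11B, a zinc finger transcription factor known from T cell development, was at 7.30, 7.26, 7.47 and 7.90 in I3P arrays and at 6.82, 6.53, 6.90 and 7.50 in DMSO arrays. The groups overlapped, since DMSO replicate 4 lay above 3 of the I3P arrays, while the pairs differed by 0.40 to 0.73. Its change was 0.55 (SE 0.090, limma adjusted p = 0.46) with the replicate block and had an adjusted p of 1.0 with no block. It was 0.58 (SE 0.093, adjusted p = 0.18) without I3P replicate 1. BCL11B ranked at percentile 7.97 of all genes. BCL3, a nuclear member of the IκB family that acts with NF-κB, was at 9.51, 9.09, 9.07 and 8.78 with I3P and at 9.10, 8.57, 8.23 and 7.85 with DMSO. The groups overlapped, the I3P array was the higher one in all 4 pairs, and the change was 0.68 (SE 0.12, limma adjusted p = 0.46), or 0.70 (SE 0.13) without I3P replicate 1.

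SLC16A6, a gene of the monocarboxylate transporter family, had the largest change among these 10. It was at 11.0, 10.77, 9.89 and 10.48 in I3P arrays and at 10.46, 9.75, 8.25 and 9.23 in DMSO arrays, and the groups overlapped. The pair differences were 0.54, 1.02, 1.64 and 1.25 for replicates 1 to 4, and the change was 1.11 (SE 0.22, 95% interval 0.63 to 1.59, limma adjusted p = 0.57), a 2.16-fold ratio. It was 1.18 (SE 0.25, adjusted p = 0.65) without I3P replicate 1. DHRS3, a retinaldehyde reductase that is induced by retinoic acid, differed by 0.43 (SE 0.082), and again both groups showed the same order of replicates. PRDM1, which encodes the transcriptional repressor BLIMP1, was at 8.38, 8.73, 8.58 and 8.90 with I3P and at 8.19, 7.96, 7.69 and 7.33 with DMSO. No I3P array of PRDM1 lay below any DMSO array, with pair differences from 0.19 in replicate 1 to 1.57 in replicate 4. The change was 0.86 (SE 0.17, limma adjusted p = 0.61), and 1.02 (SE 0.16, adjusted p = 0.18) without I3P replicate 1.

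ZNF295-AS1, an antisense transcript, was at 7.64, 7.57, 7.60 and 7.68 in I3P arrays, against 6.85, 6.90, 6.79 and 6.54 in DMSO arrays. The groups did not overlap, but the probe set ranked at percentile 1.31 of all genes. Its change was 0.86 (SE 0.16, limma adjusted p = 0.55), or 0.79 (SE 0.18) without I3P replicate 1. NEU3, a sialidase that acts on gangliosides, was at 6.99, 7.24, 6.93 and 6.89 with I3P and at 7.89, 7.74, 7.72 and 7.32 with DMSO, again with no overlap, and its change was -0.65 (SE 0.13, limma adjusted p = 0.55), or -0.58 (SE 0.13) without I3P replicate 1. The potassium channel gene KCNK12 and the phospholipase gene PLCE1 had changes of -0.94 (SE 0.20) and -0.39 (SE 0.085), with overlapping groups and the I3P array lower in all 4 pairs. DLG2, a synaptic scaffold gene, had a change of 0.55 (SE 0.12) with no overlap. Without I3P replicate 1 the changes of KCNK12, PLCE1 and DLG2 were -0.80, -0.36 and 0.56. KCNK12 ranked at percentile 3.45 of all genes. In I3P+SR1 against SR1, the changes were 0.13 in BCL11B, 0.62 in BCL3, 0.43 in DHRS3, 1.29 in ZNF295-AS1 and -0.37 in NEU3. There they were 2.8 in SLC16A6, 0.72 in PRDM1, -0.52 in KCNK12, -0.28 in PLCE1 and 0.098 in DLG2. BCL3, ZNF295-AS1 and SLC16A6 are among the 45 genes called there, described below.

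Without I3P replicate 1 the 10 smallest p belonged to PLEKHF2, PRDM1, BCL11B, SLC7A8, PABPN1, RAB17, BCL3, DHRS3, SLC16A6 and PCDH18, and the limma adjusted p ran from 0.18 to 0.65. BCL11B, BCL3, DHRS3, SLC16A6 and PRDM1 stood in both sets of 10. SLC7A8, an amino acid transporter gene, was at 6.45, 8.08, 8.91 and 8.11 in I3P arrays and at 7.94, 7.28, 8.29 and 7.35 in DMSO arrays. I3P replicate 1 was the lowest of the 8 arrays, and the change was 0.17 (SE 0.33) with it and 0.70 (SE 0.11, limma adjusted p = 0.18) without it. PCDH18, a protocadherin gene, likewise had 0.24 (SE 0.23) with that array and 0.58 (SE 0.13) without it. PLEKHF2, an endosomal protein gene, PABPN1, which encodes a nuclear poly(A) binding protein, and RAB17, a small GTPase gene, had changes of -0.49, -1.12 and -0.86 without I3P replicate 1, against -0.36, -0.82 and -0.47 with it. In each of these last 3 genes the I3P array of replicate 1 was above its DMSO array and the other 3 I3P arrays were below theirs. PABPN1 ranked at percentile 0.677 of all genes, PCDH18 at 6.52 and PLEKHF2 at 9.39, so their values are dim. In I3P+SR1 against SR1, the changes were -0.27 in PLEKHF2, 0.32 in SLC7A8, 0.22 in PABPN1, 0.055 in RAB17 and 0.025 in PCDH18.

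**Figure D3:**
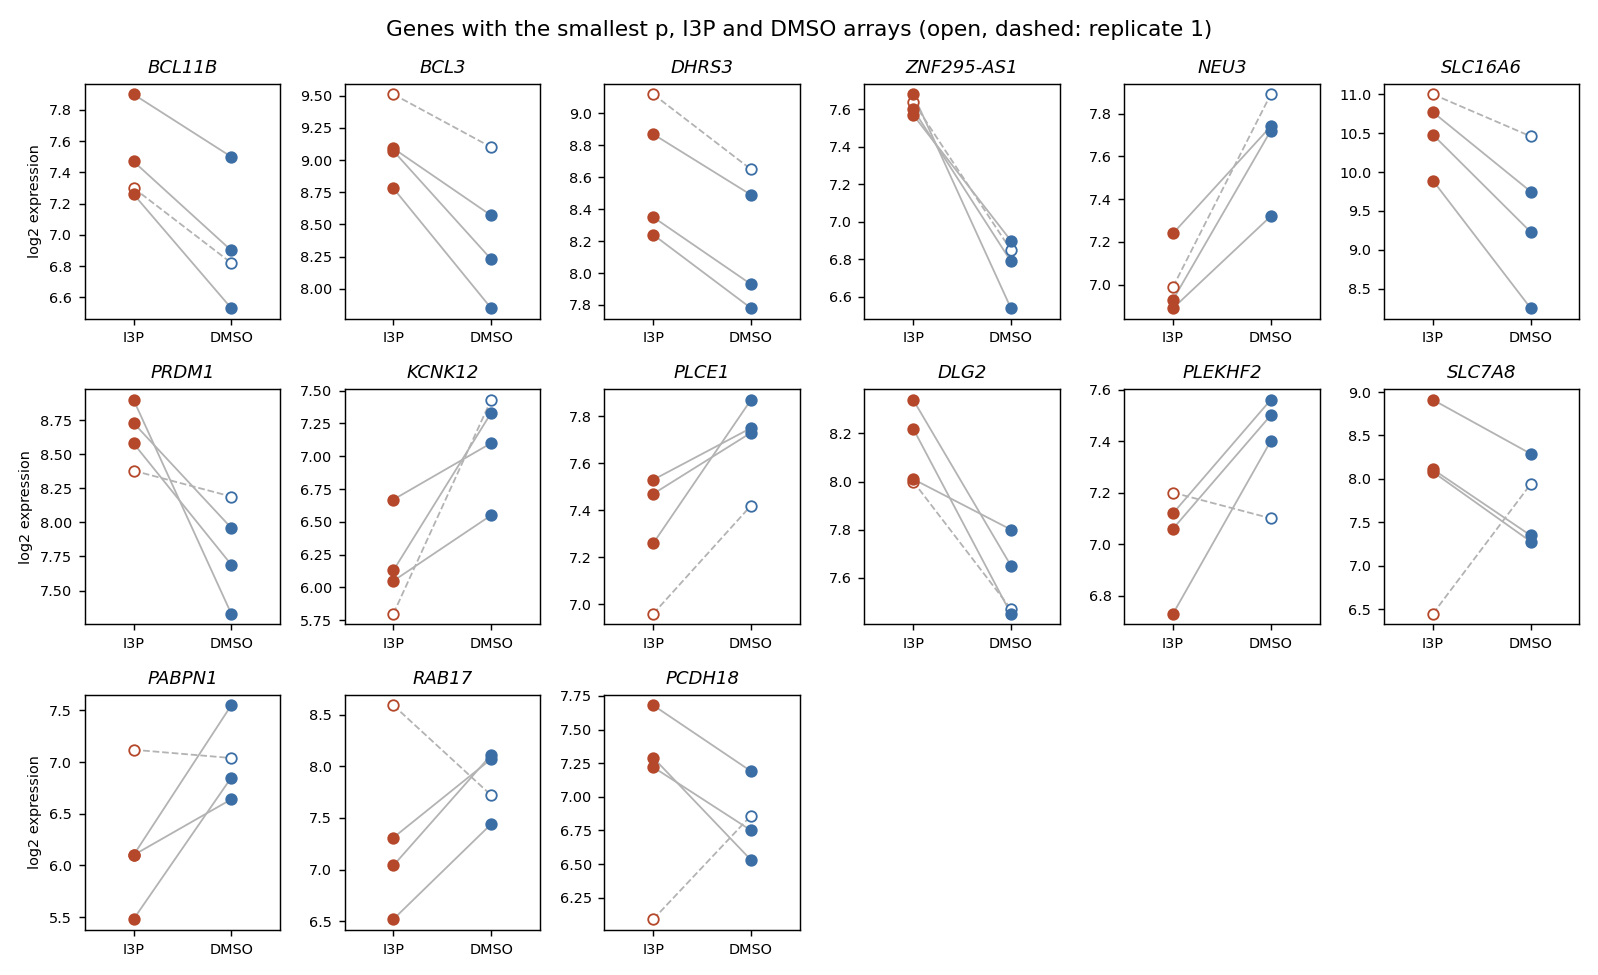
Log2 expression (vertical axis, own scale in each panel) of the 15 genes that had the 10 smallest p with all arrays or without I3P replicate 1, in I3P arrays on the left and DMSO arrays on the right of each panel, joined by replicate number, with open symbols for replicate 1. All 4 lines of BCL11B, BCL3, DHRS3 and SLC16A6 are higher at the I3P end while the groups overlap, and replicate 1 runs against the other pairs in PLEKHF2, SLC7A8, PABPN1, RAB17 and PCDH18.

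Of the genes whose groups did not overlap, the largest positive differences were those of CWH43 (1.09), SLC15A5 (0.90), PRDM1 (0.86), ZNF295-AS1 (0.86), TTC34 (0.79) and DNAJA4, a co-chaperone gene (0.79). The largest negative differences were those of KRTAP24-1 (-0.82), NEU3 (-0.65), TMCC2 (-0.55), PTPRR, a receptor-type tyrosine phosphatase gene (-0.53), TJAP1 (-0.51) and ZNF655 (-0.50). None of the 12 passed. CWH43, SLC15A5, TTC34, KRTAP24-1 and TMCC2 ranked between percentiles 1.30 and 4.84 of all genes, so these differences are between dim values. CWH43 was at 7.80, 7.30, 7.12 and 7.57 in I3P arrays and at 5.90, 5.93, 7.03 and 6.58 in DMSO arrays, and DNAJA4 was at 7.61, 7.72, 7.37 and 8.05 with I3P and at 6.94, 6.65, 6.76 and 7.26 with DMSO. In both genes the lowest I3P array stood close above the highest DMSO array. In I3P+SR1 against SR1, the changes were -0.15 in CWH43, 0.11 in SLC15A5, 0.14 in TTC34 and 0.34 in DNAJA4. There they were -0.091 in KRTAP24-1, 0.038 in TMCC2, -0.53 in PTPRR, -0.067 in TJAP1 and -0.10 in ZNF655. Those of PRDM1, ZNF295-AS1 and NEU3 are given above.

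The same addition of I3P was also measured in cells that held SR1, on arrays that are not among the I3P and DMSO arrays and that share only the replicate numbers and the spread estimate of the fit with them. In I3P+SR1 against SR1, limma called 45 genes (0.321% of 14040), 40 that rose (0.285%) and 5 that fell (0.0356%). Each of these 45 genes had a change of the same sign for I3P against DMSO, with and without I3P replicate 1. Of all genes, 45.6% had a positive and 54.4% a negative change for I3P against DMSO. If the SR1 and I3P+SR1 labels were exchanged, every change with SR1 would turn its sign, and the count of the same sign would be 0 of 45. By pair, with the labels as given, the sign was the same in 30, 41, 42 and 38 of the 45 for replicates 1 to 4, so replicate 1 held the fewest. The share of all genes with a positive pair difference was 42.4%, 51.1%, 49.7% and 54.6% in these pairs. None of the 45 passed for I3P against DMSO.

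The 40 genes that rose with I3P in the presence of SR1 had a median change there of 0.87, and a median change of 0.24 for I3P against DMSO, with a range of 0.03 to 1.11. For I3P against DMSO, 16 of the 40 had an unadjusted limma p under 0.05 with a positive change (3.14% of all genes), 20 were positive in all 4 pairs (6.1% of all genes) and 4 had groups that did not overlap (0.99% of all genes). The change was larger with SR1 present in 39 of the 40, and BCL3 was the exception, at 0.62 with SR1 and 0.68 without. The 40 were called on the change with SR1, which favours a larger change there, so that count and the medians are a description. IL1B, one of the 40, encodes the cytokine interleukin 1 beta and was at 11.91, 11.06, 10.44 and 12.12 in I3P arrays and at 11.54, 10.27, 9.27 and 11.68 in DMSO arrays. All 4 pairs of IL1B were positive while the groups overlapped widely, and its change was 1.88 (SE 0.16, limma adjusted p = 0.00024) with SR1 present, against 0.69 (SE 0.16, adjusted p = 0.77) without SR1. Leaving out I3P replicate 1 gave 0.77 (SE 0.18) without SR1.

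THBD, PITPNC1, STC2 and WIPI1 were picked from the 40 after their values had been seen. THBD, the thrombin receptor thrombomodulin, was at 7.91, 8.20, 7.26 and 7.75 with I3P and at 7.47, 7.56, 6.34 and 6.61 with DMSO. Every pair was positive, from 0.44 in replicate 1 to 1.13 in replicate 4, and the change was 1.12 (SE 0.18) with SR1 and 0.78 (SE 0.18) without SR1. THBD ranked at percentile 3.65 of all genes. PITPNC1, a phosphatidylinositol transfer protein gene, was at 10.70, 10.41, 10.50 and 10.41 in I3P arrays, against 10.15, 10.25, 10.03 and 9.99 in DMSO arrays. Its groups did not overlap, with a change of 0.92 (SE 0.12) with SR1 and 0.40 (SE 0.12) without SR1. STC2, a secreted glycoprotein gene, had a change of 1.41 (SE 0.13) with SR1 and 0.30 (SE 0.13) without SR1. The autophagy gene WIPI1 had a change of 0.43 (SE 0.075) with SR1 and 0.29 (SE 0.075) without SR1. The gene of the EGF receptor ligand epiregulin, EREG, was at 12.19, 12.24, 12.12 and 12.04 with I3P and at 12.09, 11.87, 11.86 and 11.64 with DMSO, with all pairs positive and a change of 1.07 (SE 0.10) with SR1 and 0.29 (SE 0.10) without SR1. Leaving out I3P replicate 1, the changes for I3P against DMSO were 0.81 in THBD, 0.30 in PITPNC1, 0.36 in STC2, 0.28 in WIPI1 and 0.33 in EREG.

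The 5 genes that fell with I3P in the presence of SR1 were BDKRB1, DKK1, RGS4, SCUBE3 and TRPC4. Their median change was -0.73 there and -0.33 for I3P against DMSO, where none passed. They too were called on the change with SR1, which favours a larger change there. BDKRB1, a bradykinin receptor gene, was at 8.81, 9.19, 8.55 and 9.11 in I3P arrays and at 9.39, 9.09, 9.39 and 9.37 in DMSO arrays. Replicate 2 was the pair in which I3P was the higher array, and the change was -0.40 (SE 0.15). The changes for I3P against DMSO were -0.33 (SE 0.16) in DKK1, a secreted WNT inhibitor gene, -0.38 (SE 0.13) in RGS4, a regulator of G protein signalling, -0.22 (SE 0.11) in SCUBE3 and -0.31 (SE 0.083) in the cation channel gene TRPC4. The I3P array of RGS4, SCUBE3 and TRPC4 was the lower one in all 4 pairs. Leaving out I3P replicate 1 gave changes of -0.34 in BDKRB1, -0.42 in DKK1, -0.25 in RGS4, -0.17 in SCUBE3 and -0.29 in TRPC4.

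In the fit that leaves out I3P replicate 1, limma called 104 genes (0.741%) in I3P+SR1 against SR1, 73 that rose (0.52%) and 31 that fell (0.221%), with all 45 of the genes above among them. For I3P against DMSO without that array, 69 of the 73 and 26 of the 31 had the same sign, with median changes of 0.24 and -0.11. With no replicate block, 16 genes (0.114%) passed in I3P+SR1 against SR1, and all 16 rose.

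The difference between both changes, (I3P+SR1 minus SR1) minus (I3P minus DMSO), was called for 1 gene, CYP1B1 (0.00712% of 14040). CYP1B1 was at 10.56, 10.53, 11.15 and 11.11 in I3P+SR1 arrays and at 8.36, 8.40, 8.17 and 8.20 in SR1 arrays, a change of 2.56 (SE 0.13). Set against its change of 0.35 without SR1, this gave a difference of 2.21 (SE 0.18, 95% interval 1.81 to 2.61, limma adjusted p = 0.00038), and of 2.19 (SE 0.19, adjusted p = 0.0019) without I3P replicate 1. With the SR1 and I3P+SR1 labels exchanged the difference would be -2.9. The level in I3P+SR1 arrays lay below the I3P arrays of the same replicate, and the SR1 arrays lay further below the DMSO arrays. SLC16A6, STC2, AHRR and EREG had differences of 1.69, 1.11, 1.22 and 0.78, each with a limma adjusted p of 0.33. Of the 45 genes, 36 had an unadjusted p under 0.05 for this difference, all toward a larger change with SR1. Of all genes 3.96% reached that level, 1.97% with a positive and 1.99% with a negative difference. The 45 were called on the change with SR1, which is a term of this difference, so that count is a description. When I3P replicate 3 was left out, PDE8B was called beside CYP1B1, with a difference of -1.09 (SE 0.14, adjusted p = 0.036). BCL11B had a difference of -0.42 (SE 0.13, adjusted p = 0.99), with a change of 0.13 (SE 0.090) in I3P+SR1 against SR1.

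**Figure D4:**
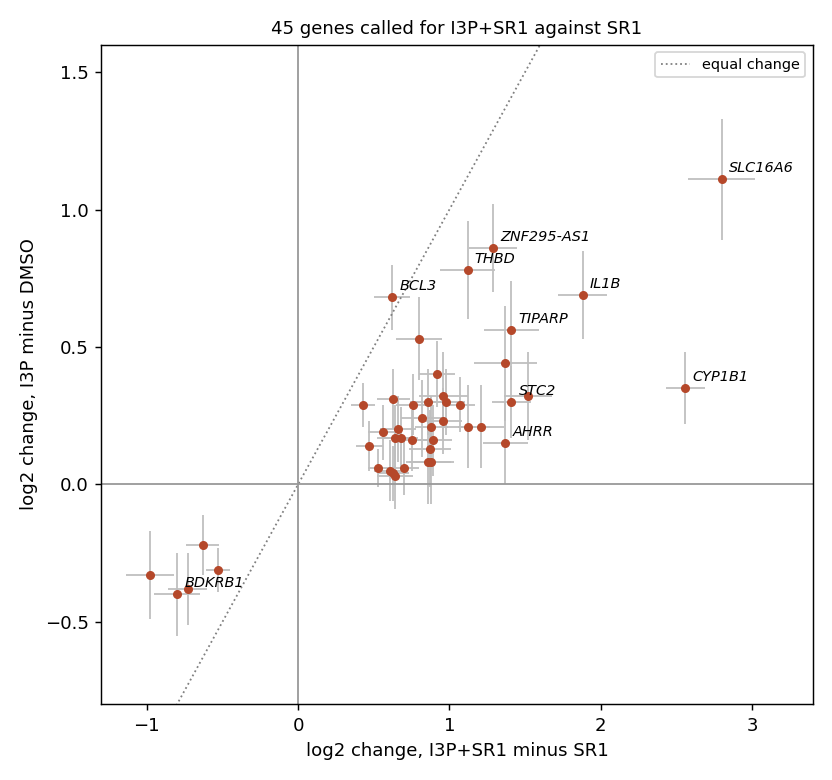
Log2 change of I3P minus DMSO (vertical axis) against that of I3P+SR1 minus SR1 (horizontal axis) for the 45 genes called in I3P+SR1 against SR1, with bars of 1 SE in both directions and a dotted line where both changes are equal. All 45 points lie in the quadrants of equal sign, 44 are nearer to 0 on the vertical axis than on the horizontal one, and CYP1B1 lies furthest from the line at 2.56 with SR1 and 0.35 without. The genes were chosen by the change on the horizontal axis, which favours larger values there.

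None of the 33 gene lists had a member that passed, so the lists are described by counts and medians. The labels name the experiment after migration. Of 28 measured migration and mesenchymal genes 10 had a positive change (45.6% of all genes), with a median of -0.038. MMP14, a membrane-bound matrix metalloproteinase gene, averaged 10.34 ± 0.28 in I3P arrays and 10.11 ± 0.20 in DMSO arrays (SD, n = 4 each), with pair differences of 0.092, 0.22, 0.31 and 0.30. The MMP14 pairs were thus all positive while the groups overlapped, with a change of 0.23 (SE 0.090, limma adjusted p = 0.77), or 0.29 (SE 0.084) without I3P replicate 1. The matrix genes LUM and BGN had changes of 0.32 (SE 0.12) and 0.37 (SE 0.14), within a matrix list of 20 genes whose median was -0.032. CTGF, a YAP and TGF-beta target, had a change of -0.37 (SE 0.14), with I3P lower in all 4 pairs, within a list of 19 genes whose median was -0.044.

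Mitosis genes were mostly at slightly lower values in I3P arrays. Of the 25 measured members of the mitosis list 24 had a negative change with all arrays, where 54.4% of all genes were negative. Without I3P replicate 1 all 25 were negative, where 6763 of 14040 genes were. The median change of the list was -0.15 with all arrays and -0.10 without I3P replicate 1. By replicate number it was -0.31, -0.08, -0.17 and -0.12. An unadjusted limma p under 0.05 with a negative change was reached by 7 of 25 with all arrays (3.14% of all genes) and by 2 without I3P replicate 1 (2.39% of all genes). BUB1B, a kinase of the spindle checkpoint, was at 9.16, 9.32, 9.73 and 9.23 with I3P and at 9.46, 9.49, 10.02 and 9.52 with DMSO. I3P was the lower array of BUB1B in every pair, and the change was -0.26 (SE 0.076), or -0.22 (SE 0.071) without I3P replicate 1. The ubiquitin-conjugating enzyme gene UBE2C and the kinesin genes KIF20A and KIF23 had changes of -0.29 (SE 0.11), -0.31 (SE 0.12) and -0.20 (SE 0.081). Of the 25 DNA replication genes 18 had a negative change, with a median of -0.062, and so did all 6 measured histone genes, with a median of -0.061. Without I3P replicate 1 these counts were 15 and 5, with medians of -0.057 and -0.047. By replicate number the DNA replication medians were -0.10, 0.02, -0.10 and -0.06, and the histone medians -0.28, 0.01, -0.07 and 0.06. With SR1 present, the changes of BUB1B, UBE2C, KIF20A and KIF23 were -0.069, -0.067, -0.080 and -0.11.

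Inflammatory cytokine and NF-κB genes had a positive change in 17 of 20 (45.6% of all genes), with a median of 0.13, and of 0.12 without I3P replicate 1. An unadjusted limma p under 0.05 was reached by 5, all positive, where 3.14% of all genes reached it with a positive change. IL1A was at 6.20, 6.03, 6.58 and 8.07 in I3P arrays and at 6.02, 5.42, 5.99 and 7.34 in DMSO arrays, at percentile 0.199 of all genes. Every IL1A pair was positive, and both replicate 4 arrays were the highest of their group. ICAM1, an adhesion molecule gene, and IL8, a chemokine gene, had changes of 0.34 (SE 0.11) and 0.38 (SE 0.17), and of 0.24 and 0.16 without I3P replicate 1. The list of other genes reported to respond to AHR also holds IL1A, IL1B and SLC16A6. Of its 38 measured genes 32 had a positive change (45.6% of all genes). Its median was 0.075 with all arrays and 0.14 without I3P replicate 1. Retinoid genes were positive in 10 of 12 (45.6% of all genes), with a median of 0.11. They included DHRS3, the retinoic acid hydroxylase gene CYP26B1 at 0.30 (SE 0.15) and the retinaldehyde dehydrogenase gene ALDH1A3 at 0.23 (SE 0.12). Without I3P replicate 1, CYP26B1 had a change of 0.15 (SE 0.12) and ALDH1A3 one of 0.24 (SE 0.13). With SR1 present, the change was -0.34 (SE 0.15) in CYP26B1 and 0.96 (SE 0.12) in ALDH1A3.

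In several metabolic lists replicate 1 stood apart from the other pairs. Cholesterol synthesis and uptake genes had a median of -0.45 in replicate 1 and of 0.0, 0.04 and 0.09 in replicates 2, 3 and 4. Over the 15 measured members the median was -0.11 with all arrays and 0.017 without that array. INSIG1, a brake on cholesterol synthesis, was at 11.90, 11.28, 11.28 and 11.74 with I3P and at 11.38, 11.0, 10.98 and 11.61 with DMSO, and its change of 0.30 (SE 0.12) was positive in all 4 pairs. Fatty acid synthesis genes had a replicate 1 median of -0.35, and amino acid and monocarboxylate transporters one of -0.30. The tryptophan and indole metabolism list had a median of -0.062 over 16 genes and of 0.053 without I3P replicate 1. Within it, DDT, which encodes a D-dopachrome tautomerase, was at 8.63, 8.72, 8.55 and 8.76 in I3P arrays and at 8.35, 8.19, 8.43 and 8.52 in DMSO arrays. The DDT groups did not overlap, with a change of 0.29 (SE 0.090, limma adjusted p = 0.77). TDO2, the tryptophan dioxygenase gene, had a change of 0.30 (SE 0.12). The changes of DDT and TDO2 were 0.28 and 0.24 without I3P replicate 1. The intestinal stem cell marker LGR5, from the WNT list, had a change of 0.75 (SE 0.17, limma adjusted p = 0.74) with no overlap of its groups, at percentile 7.81 of all genes. In I3P+SR1 against SR1 the change of LGR5 was 0.11 (SE 0.17).

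**Figure D5:**
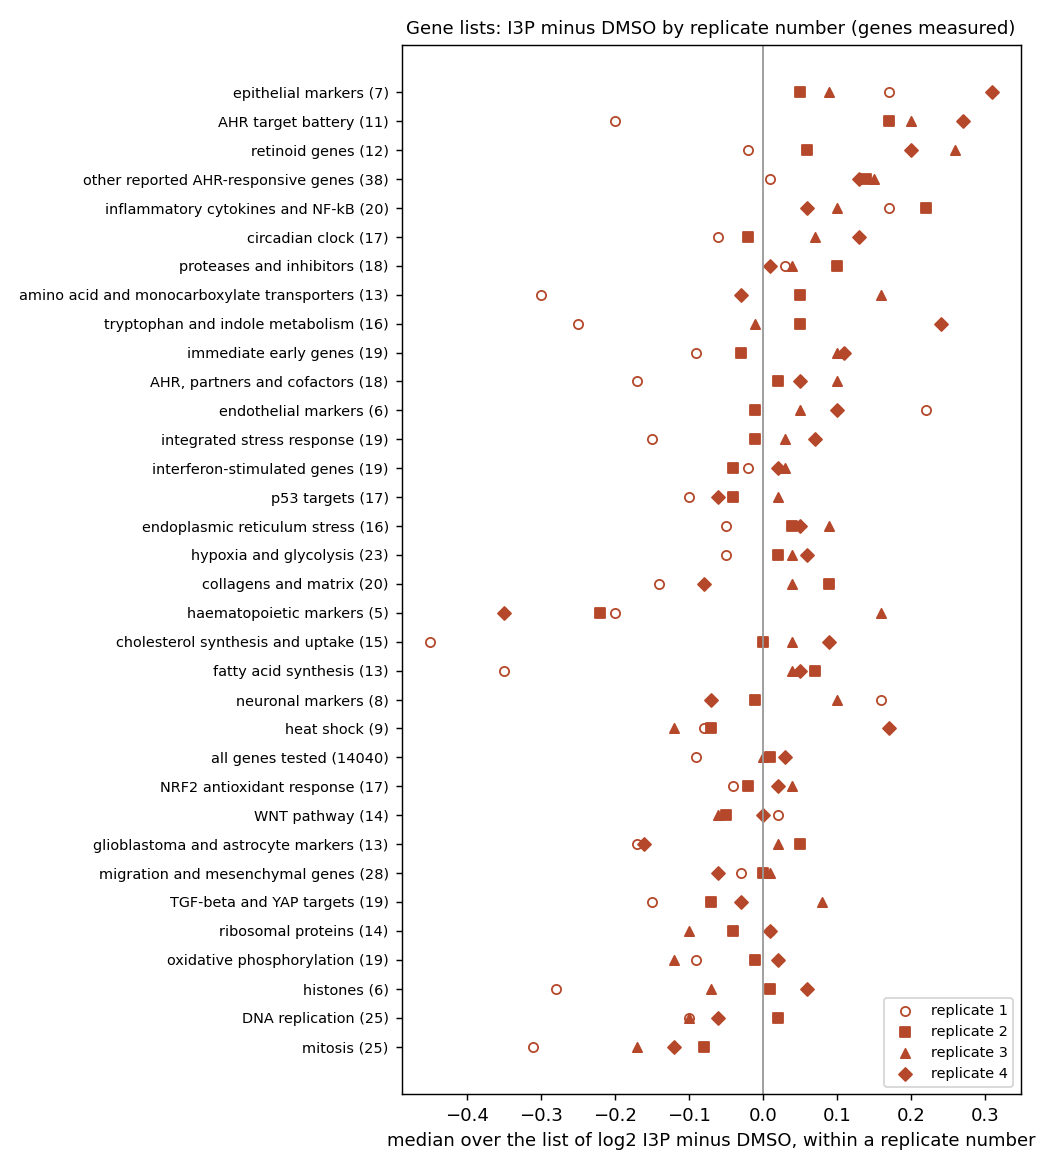
Median over the measured genes of each list of the log2 difference I3P minus DMSO within a replicate number (horizontal axis), with the number of genes measured in brackets, lists sorted down the vertical axis and an open symbol for replicate 1. The mitosis list is negative in all 4 replicates, at -0.31 to -0.08, and the cholesterol list is at -0.45 in replicate 1 and at 0.0 to 0.09 in the others.

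Markers of other cell types had no member that passed. The summed log2 level of the 5 measured haematopoietic markers was 37.21 to 38.21 in I3P arrays and 38.31 to 39.27 in DMSO arrays, so the groups did not overlap. With TYROBP left out, the sums of the other 4 were 30.66 to 32.73 with I3P and 31.06 to 31.53 with DMSO, which overlap. The changes were 0.27 in ITGAM, 0.11 in PTPRC, 0.049 in CD3E and -0.28 in AIF1. TYROBP, an adaptor of myeloid receptors, was at 5.39, 7.29, 5.83 and 6.55 with I3P and at 7.38, 7.04, 8.21 and 6.90 with DMSO, a change of -1.12 (SE 0.33, limma adjusted p = 0.77) at percentile 3.98 of all genes, and of -0.89 (SE 0.35) without I3P replicate 1. PTPRC, the common leukocyte antigen gene, ranked at percentile 9.96. The sums of the 7 epithelial markers were 52.36 to 56.33 with I3P and 52.33 to 54.32 with DMSO, and those of the 8 neuronal markers 61.22 to 63.17 with I3P and 61.35 to 62.19 with DMSO. Those of the 6 endothelial markers were 46.17 to 47.42 with I3P and 45.06 to 46.17 with DMSO. The part of these markers in the results above was not tested.

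The deviation of I3P replicate 1 was also looked up gene by gene, each time relative to the DMSO array of its number and to the other pairs. THBS4, a thrombospondin gene, was at 2.59 in I3P replicate 1 and at 7.65, 7.34 and 7.05 in the other I3P arrays, against 7.0, 7.68, 7.67 and 6.96 in DMSO arrays. CD96, a lymphocyte receptor gene, was at 10.49 in I3P replicate 1 and at 7.93, 8.27 and 8.05 in the other I3P arrays, against 7.88, 8.46, 7.92 and 8.70 in DMSO arrays. The largest deviations below the other pairs, after THBS4, were in GLB1L3, BOLL, WFDC3, ZNF224 and MYH10, and the largest above them were in ATP6V1B1, SLC12A3, DNAJB13, TRPM8, GSTM3 and CD96. BOLL and DNAJB13 were among them through the spread of the DMSO arrays. DMSO replicate 2 of BOLL was at 2.13, against 6.55 to 7.54 in the other DMSO arrays. DNAJB13 was at 5.80 in I3P replicate 1, within the 4.98 to 6.03 of the other I3P arrays, while its DMSO arrays were at 4.07, 6.76, 4.44 and 8.62. Without I3P replicate 1 the change of THBS4 was -0.069 and that of CD96 -0.19, against -1.17 and 0.45 with it.

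The change of I3P against DMSO was compared between the SMI and SLI arrays in a limma fit with a mean per group and title series. No gene was called (0.0%), the smallest adjusted p was 0.82, and 700 genes (4.99%) had an unadjusted p under 0.05. With 2 replicates a series, I3P replicate 1 makes up 1 of the 2 SLI arrays of its group. When I3P replicate 2 was left out, so that replicate 1 stood alone for SLI, limma called 1203 genes, 855 with a positive difference (SMI minus SLI) and 348 with a negative one. Within SMI the changes were 0.64 in TIPARP and 0.41 in CYP1B1, and within SLI they were 0.47 and 0.28. SLC16A6 had a change of 1.44 within SMI and 0.78 within SLI, and PRDM1 one of 1.23 within SMI and 0.48 within SLI. No gene was called within either series, and limma gave 724 genes with an unadjusted p under 0.05 within SMI (5.16%) and 647 within SLI (4.61%).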

How the data were processed

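The 16 arrays carried 1 colour each and held U-87MG RNA, 100 ng of it labelled per the labels' protocols. The deposited values are log2 expression, made with oligo and RMA per the submitters' processing notes, which name no version. The sources used here do not give the genome build, the row filter or the exposure time. Signal over background was not assessed, because only the summarized values were used.

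Of 16510 rows, 14096 had 1 symbol in the platform annotation, 795 with several symbols were dropped, and 1619 were unlisted and unnamed. For 52 genes with more than 1 row the row with the highest mean was kept, giving 14040 genes. Of their symbols 12952 were current in RefSeq, 1044 were older symbols and 44 had no single match.

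limma 3.58.1 in R 4.3.3 (lmFit, eBayes) was fitted to the 16 arrays with a mean per group and the replicate number as a fixed block (9 residual degrees of freedom), because the comparison pairs arrays by that number. Tests are two-sided, adjusted by Benjamini-Hochberg over all genes, with a call threshold of 0.05. Gene intervals are single-gene 95% intervals. The fit was also run on simulated data. There every array had the same spread for a gene, so an array as unlike the others as I3P replicate 1 was not covered. By the correlation of deviations from group means, same-numbered I3P and DMSO arrays were at -0.07, 0.39, 0.25 and 0.51 for replicates 1 to 4. Arrays differed by a root mean square of at least 0.258, so none was a copy of another.

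Alternatives left out each I3P and DMSO array in turn and changed the block, array weights, moderation, filter, row choice, centring and title series. The comparison, the 33 gene lists and the tests were chosen with earlier results of these data known. Genes named were the 10 smallest p in each fit, all measured battery members, AHR and ARNT, up to 4 smallest p from each other list, the 6 largest non-overlapping differences a side and the 6 largest deviations of I3P replicate 1 a side. The genes called in I3P+SR1 against SR1 that are named outside this rule were chosen after their values were seen.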

Additional observations from a re-analysis of the deposited data

Results flagged for a closer look

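The change of CYP1B1 with I3P differed with and without SR1, by 2.21 on the log2 scale, and this was tested in limma as given above. The other entries are arrays far from the rest of their group of 4, by the gap to the nearest array as a share of the group's range. Chance puts about 1 in 20 groups past that limit, and the named genes were looked at in both groups.

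I3P replicate 1 was such an array in 8 genes. It was low for THBS4 (2.59, others 7.05 to 7.65), GLB1L3 (4.32, others 6.63 to 7.01), ZNF224 (4.96, others 7.47 to 7.95) and PTPRR (6.56, others 7.09 to 7.19). It was high for CD96 (10.49, others 7.93 to 8.27), GSTM3 (9.90, others 7.01 to 7.30), ATP6V1B1 (9.13, others 7.46 to 7.55) and TTC34 (7.35, others 6.88 to 6.91). Of these, all but PTPRR and TTC34 had been picked for the deviation of that array. PTPRR and TTC34 had been picked for groups that do not overlap, and I3P replicate 1 lies on the far side of its group from DMSO in both.

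Among the DMSO arrays, replicate 1 was apart for ATP6V1B1 (6.32, others 7.89 to 8.18) and TJAP1 (8.98, others 8.56 to 8.62). Replicate 2 was apart for AHR (10.99, others 11.20 to 11.23), GSTM3 (7.90, others 7.33 to 7.41) and BDKRB1 (9.09, others 9.37 to 9.39). Replicate 3 was apart for BUB1B (10.02, others 9.46 to 9.52), and replicate 4 for ZNF224 (7.37, others 7.72 to 7.78).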

How the results depend on the processing

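No gene was called for I3P against DMSO under any of the 23 alternatives, where limma's counts at an unadjusted p under 0.05 ran from 271 to 1325 and the smallest adjusted p from 0.11 to 1.0. With no replicate block that count was 395, against 882 with it. By their titles, arrays of the same number belong to a common set that holds every group. Deviations of same-numbered I3P and DMSO arrays from their group means correlated at 0.39, 0.25 and 0.51 in replicates 2, 3 and 4. In replicate 1, which holds the I3P array unlike the others, the correlation was -0.07. Whether samples of a set were handled together was not tested. The block changed no call for I3P against DMSO. The battery median stayed positive, from 0.026 to 0.23. The count for the change with SR1 minus the change without it was 1 to 2 over the left-out arrays. Without I3P replicate 3, PDE8B (-1.09, adjusted p = 0.036) was called beside CYP1B1 (2.23). For SMI against SLI, leaving out an array gave 0 to 1203 genes. The count of 1203 came without I3P replicate 2, when I3P replicate 1 is the lone SLI array of its group and is assumed to vary like the others.

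Of 80 named genes 20 changed sign under some alternative, and none of them passed in any. Of the 20, 11 had been picked for the deviation of I3P replicate 1 and are given last. For the other 9, within SLI the changes were -0.35 in SLC7A8, -0.0037 in PCDH18, -0.13 in ABCG2, -0.23 in CYP1A1, 0.13 in CYP1A2 and -0.066 in NQO1. With replicate 1 left out (6 arrays of I3P and DMSO, or all groups) they were 0.050 in SLC7A5, -0.0093 in AHR and 0.066 in ARNT. Within SMI they were 0.11, -0.064 and 0.066, with array weights 0.041, -0.00099 and 0.031, for SLC7A5, AHR and ARNT. Without I3P replicate 1 and no replicate block, SLC7A5 had 0.018 and AHR -0.025. Over the left-out arrays, the changes ran from -0.035 to 0.70 in SLC7A8, -0.020 to 0.12 in ABCG2, -0.17 to 0.54 in CYP1A1, -0.14 to 0.063 in SLC7A5, -0.028 to 0.11 in AHR and -0.12 to 0.046 in ARNT.

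Among the genes picked for that deviation, leaving out replicate 1 (6 arrays of I3P and DMSO, or all groups) gave -0.50 in ATP6V1B1, -0.73 in SLC12A3, -0.21 in TRPM8, -0.38 in GSTM3, -0.28 in CD96, 0.36 in GLB1L3, 0.039 in WFDC3 and 0.13 in ZNF224. Within SMI the changes were -0.55 in ATP6V1B1, -0.80 in SLC12A3, -0.019 in TRPM8, -0.13 in GSTM3, -0.15 in CD96, 0.15 in GLB1L3 and 0.11 in ZNF224. Within SLI they were 0.099 in DNAJB13 and -1.05 in MYH10. With array weights they were -0.16 in ATP6V1B1, -0.27 in SLC12A3, -0.12 in TRPM8, -0.42 in GSTM3, -0.080 in CD96 and 0.11 in GLB1L3. Without I3P replicate 1 and no replicate block they were -0.076 in ATP6V1B1, -0.41 in SLC12A3, -0.056 in TRPM8, -0.34 in GSTM3, -0.16 in CD96, 0.063 in GLB1L3, 0.10 in ZNF224 and 0.021 in THBS4. Over the left-out arrays they ran from -0.25 to 0.56 in ATP6V1B1, -0.48 to 0.50 in SLC12A3, -1.38 to 0.84 in DNAJB13, -0.18 to 0.89 in TRPM8, -0.49 to 0.69 in GSTM3, -0.19 to 0.74 in CD96, -0.88 to 0.16 in GLB1L3, -1.06 to 0.081 in WFDC3, -0.90 to 0.089 in ZNF224 and -0.0061 to 1.08 in MYH10. The cause was not tested. The number of arrays limits the precision.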
